A study of Homo sapiens with 6 samples.

Results

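The genes examined were 8 that encode the adaptors of the nuclear RNA exosome. MTREX, ZCCHC8 and RBM7 form the nuclear exosome targeting (NEXT) complex. ZFC3H1, PABPN1, ZC3H3, RBM26 and RBM27 belong to the poly(A) tail exosome targeting (PAXT) connection and its partners. The genes were chosen by name from the known make-up of both assemblies, out of 28307 gene symbols in the deposited tables. Earlier results of these data were known when they were chosen. All 8 were among the 13300 symbols with a mean of at least 1 TPM (the usual unit of transcript abundance, a share of the gene RNA of a library that is scaled to transcript length).

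The RNA exosome degrades RNA from its 3′ end, and in the nucleus it relies on the helicase MTREX (also called MTR4) to unwind RNA and feed it in. NEXT, in which ZCCHC8 bridges MTREX and the RNA-binding protein RBM7, handles short RNA without a long poly(A) tail, such as promoter upstream transcripts. PAXT, in which ZFC3H1 bridges MTREX and the nuclear poly(A)-binding protein PABPN1, handles polyadenylated nuclear RNA. ZC3H18 ties both assemblies to the capped 5′ end of RNA through ARS2 and the cap-binding complex.

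The libraries came from SW480, an established line of human colon adenocarcinoma. The 3 control libraries were from cells carrying pLENTI CMV Clover, a fluorescent protein, and the other 3 from cells carrying pLENTI CMV Z18trunc, a ZC3H18 that ends early. Both transgenes were delivered by lentivirus, driven by the strong CMV promoter and kept under antibiotic selection, the lines are described as biological replicates, and all of them retained their own ZC3H18 gene. Polyadenylated RNA was read in a stranded, paired-end format.

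Libraries held 18226033 to 22463310 aligned fragments. ZC3H18 was at 51.3 to 61.8 TPM in Clover and 739 to 798 TPM in Z18trunc (13.4-fold, limma adjusted p = 3.21e-05), and reads from the gene and from the transgene were not told apart. Of 8 colon epithelial markers, 7 were above a mean of 1 TPM, led by KRT18, and LGR5 was at 0 in every library. The 3 endothelial markers summed to at most 0.503 TPM and the 4 fibroblast markers to at most 1.55 TPM, with PECAM1, CDH5 and DCN at 0. Most of these sums came from VWF and COL1A1. The 4 haematopoietic markers, with PTPRC at 0, summed to 1.38 to 1.94 TPM in Clover and 0.748 to 1.17 TPM in Z18trunc, mostly from CD14. The 5 melanocyte markers, with MLANA and TYR at 0, summed to 2.66 to 4.94 TPM. Nearly all of that came from PMEL (1.42 to 3.60 TPM) and MITF (1.24 to 2.27 TPM). The median log2 change in Z18trunc was 0.11 over the 13300 genes. TPM is a share of a fixed total, so this is not a rise of all RNA. With FPKM, a measure of abundance without that fixed total, the median was 0.04. Log2 changes of TPM here and below are differences of mean log2(TPM + 1), which are smaller for low genes than the log2 ratio of mean TPM. The limma test passed 2 of these, or 0.015%, at an adjusted p under 0.05. The difference varied with transcript length. The quartile of genes with the longest transcripts had a median log2 change of 0.25, and the shortest quartile had -0.02. Clover replicate 2 stood apart, since the long transcripts lay 0.28 below their mean in it on the log2 scale, against deviations from -0.06 to 0.16 in the other 5 libraries.

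To ask how abundant the adaptors are in these cells, their TPM values were put in order in each group. In Clover the order was PABPN1, ZC3H3, MTREX, RBM27, RBM26, RBM7, ZCCHC8 and ZFC3H1, from a mean of 140 TPM to a mean of 3.83 TPM. PABPN1 stood in the 91.3rd percentile of the 13300 genes by level and ZFC3H1 in the 24.8th. Neighbours in that order had separate ranges over the 3 libraries, except that RBM27 overlapped RBM26 and RBM26 overlapped RBM7. In Z18trunc the ranges of ZC3H3 and MTREX overlapped as well, and RBM7 stood before RBM26 with overlapping ranges. Within NEXT, the scaffold ZCCHC8 was below its partners RBM7 and MTREX in every library. Within PAXT, the scaffold ZFC3H1 was the lowest of the 5 genes in every library.

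**Figure D1:**
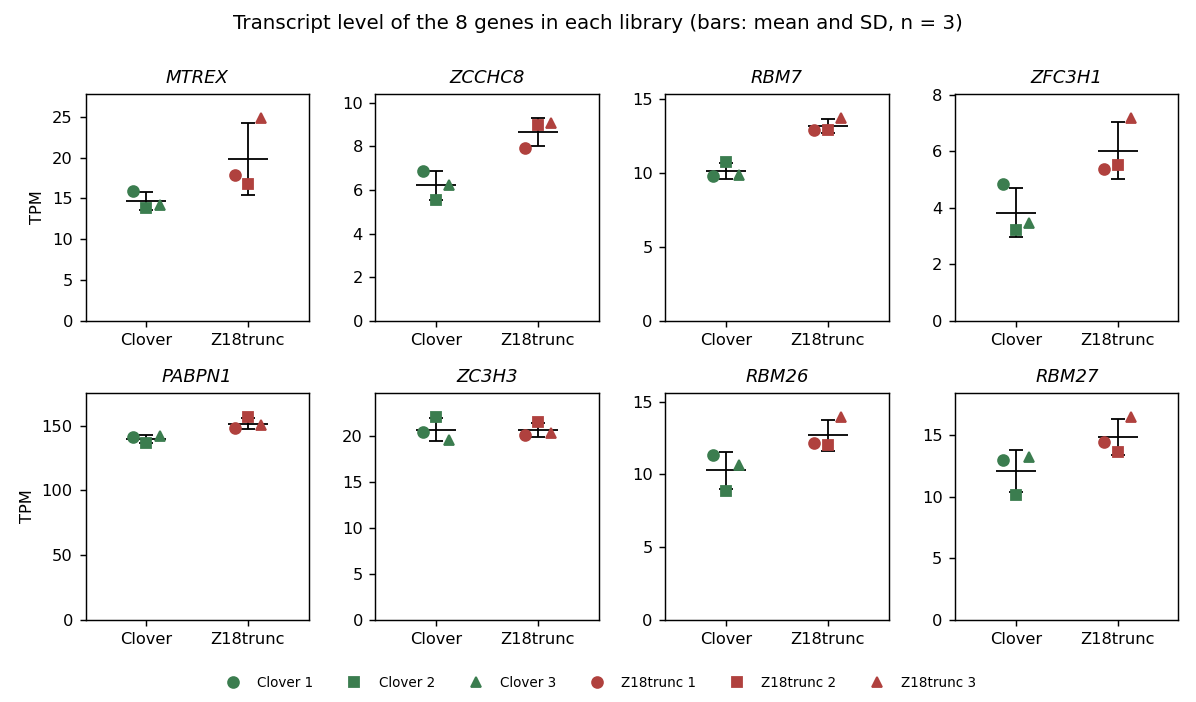
TPM of each of the 8 genes (vertical axes, from 0) in the 3 Clover and 3 Z18trunc libraries, with the replicate number as the marker shape and bars for the mean and SD. The groups are apart for every gene except ZC3H3, and the highest values of MTREX (24.9 TPM) and ZFC3H1 (7.18 TPM) are both in Z18trunc replicate 3.

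To ask whether the adaptor genes themselves differed when truncated ZC3H18 was present, Z18trunc was compared with Clover. None of the 8 genes passed limma over all genes (adjusted p from 0.0773 for RBM7 to 0.978 for ZC3H3). In 7 of the 8 genes all 3 Z18trunc libraries were above all 3 Clover libraries, where 30.1% of all genes tested behaved so. At an unadjusted limma p under 0.05, 5 of the 8 were higher and 0 lower, where 25.6% of all genes were higher and 2.9% lower. With FPKM in place of TPM, 3 of the 8 were higher and 0 lower at that p, where 2674 of 13300 genes were higher and 1001 lower. The median log2 change was 0.32 over the 8 genes and 0.11 over all genes with TPM, and 0.24 and 0.04 with FPKM. In RNA from a whole culture, a higher level in every cell and a larger share of cells with the RNA cannot be told apart. For a single gene the exact two-sided permutation test of 3 against 3 libraries cannot go below p = 0.1, which it gave for each of the 7 genes.

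MTREX, the helicase that both assemblies share (hg38, chromosome 5, 55307989 to 55425579, plus strand, 27 exons in its canonical transcript), was at 15.9, 13.9 and 14.2 TPM in Clover replicates 1 to 3 and at 17.9, 16.8 and 24.9 TPM in Z18trunc replicates 1 to 3. The groups did not overlap, but replicate 3 stood well above the other Z18trunc libraries. The mean went from 14.7 ± 1.11 to 19.8 ± 4.39 TPM (SD, n = 3 each), with a log2 change of 0.39 (SE 0.15, limma adjusted p = 0.148). Without Z18trunc replicate 3 the log2 change was 0.23 (limma adjusted p = 0.260). The 3′ end of MTREX overlaps PLPP1, a lipid phosphatase gene on the other strand. PLPP1 was at 8.10 ± 0.614 TPM in the control and 8.62 ± 0.498 TPM with Z18trunc (log2 change 0.08, limma adjusted p = 0.563).

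ZCCHC8, the zinc-knuckle scaffold of NEXT (chromosome 12, 122471600 to 122500932, minus strand, 14 exons), was at 6.87, 5.53 and 6.24 TPM in Clover and at 7.93, 8.999 and 9.06 TPM in Z18trunc. The highest Clover library, replicate 1, was below the lowest Z18trunc library, also replicate 1. The mean went from 6.21 ± 0.668 to 8.66 ± 0.635 TPM (SD, n = 3 each), with a log2 change of 0.42 (SE 0.10, limma adjusted p = 0.0783). RBM7, the RNA-binding subunit of NEXT (chromosome 11, 114400666 to 114410607, plus strand, 5 exons), was at 9.76, 10.7 and 9.85 TPM in Clover and at 12.9, 12.9 and 13.7 TPM in Z18trunc. Its libraries were tight within each group and apart between them. The mean went from 10.1 ± 0.544 to 13.2 ± 0.465 TPM (SD, n = 3 each), with a log2 change of 0.35 (SE 0.07, limma adjusted p = 0.0773). Both genes passed when only the 9973 genes with a mean of at least 5 TPM were tested, a set without ZFC3H1 in which 474 genes were called (limma adjusted p = 0.0495 for ZCCHC8 and 0.0486 for RBM7).

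The ratio of ZCCHC8 to RBM7 was 0.703, 0.515 and 0.634 in Clover and 0.615, 0.697 and 0.661 in Z18trunc. The ratio of MTREX to ZCCHC8 was 2.32, 2.51 and 2.28 in Clover and 2.26, 1.86 and 2.75 in Z18trunc. Both ratios overlapped between the groups, as did that of MTREX to RBM7, so a shift in the balance of NEXT transcripts was not detectable with 3 libraries a group.

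ZFC3H1, the zinc-finger scaffold of PAXT (chromosome 12, 71609601 to 71663848, minus strand, 35 exons), was at 4.83, 3.21 and 3.45 TPM in Clover and at 5.37, 5.53 and 7.18 TPM in Z18trunc. Clover replicate 1 and Z18trunc replicate 1 were the closest pair across the groups, and Z18trunc replicate 3 was the highest library. The mean went from 3.83 ± 0.875 to 6.03 ± 1.003 TPM (SD, n = 3 each), with a log2 change of 0.55 (SE 0.16, limma adjusted p = 0.0918). This was the largest change of the 8 genes and stood in the 97.3rd percentile of all genes tested. Its transcript of 7037 bases is also the longest of the 8.

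PABPN1, which coats poly(A) tails in the nucleus (chromosome 14, 23320188 to 23326185, plus strand, 7 exons), was at 141, 136 and 142 TPM in Clover and at 148, 156 and 150.4 TPM in Z18trunc. The groups were apart by a small margin. The mean went from 140 ± 3.08 to 152 ± 4.44 TPM (SD, n = 3 each). The log2 change of 0.11 (SE 0.07, limma adjusted p = 0.302) was the same size as the median of all genes, and it turned to -0.0502 when each library was centred on its median. The value is uncertain, since the read-through gene BCL2L2-PABPN1 shares the exons of PABPN1 on the same strand. BCL2L2-PABPN1 was listed at 5.73, 0 and 4.44 TPM in Clover and at 4.06, 0 and 3.75 TPM in Z18trunc. With both summed, an alternative chosen after the data were seen, the log2 change was 0.11 (limma adjusted p = 0.353).

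The other PAXT partners are ZC3H3, a zinc-finger protein, and the related RNA-binding proteins RBM26 and RBM27. ZC3H3 (chromosome 8, 143437659 to 143541447, minus strand, 12 exons) was at 20.4, 22 and 19.6 TPM in Clover and at 20.0, 21.5 and 20.3 TPM in Z18trunc. It was the only one of the 8 genes whose groups overlapped. The log2 change was -0.00418 (SE 0.08, 95% interval -0.18 to 0.18, limma adjusted p = 0.978). RBM26 (chromosome 13, 79318868 to 79406255, minus strand, 22 exons) was at 11.3, 8.83 and 10.7 TPM in Clover and at 12.2, 12.0 and 13.9 TPM in Z18trunc. RBM27 (chromosome 5, 146203605 to 146289221, plus strand, 21 exons) was at 13.02, 10.2 and 13.2 TPM in Clover and at 14.5, 13.7 and 16.5 TPM in Z18trunc. For both genes the lowest library was Clover replicate 2 and the highest was Z18trunc replicate 3. The log2 change was 0.29 for RBM26 (SE 0.11, limma adjusted p = 0.149) and 0.28 for RBM27 (SE 0.12, limma adjusted p = 0.190). RBM26-AS1, which lies beside RBM26 on the other strand without overlap, was at 0.523 ± 0.172 TPM in the control and 0.411 ± 0.169 TPM with Z18trunc (SD, n = 3 each). SNORD149 inside ZC3H3, and MIR4454 with a deposited span that covers MTREX, were listed at 0 in all 6 libraries.

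RBM26 and RBM27 kept a steady ratio. Over 3 libraries a group, RBM27 over RBM26 was 1.18 ± 0.0529 (SD) in the control and 1.17 ± 0.0285 (SD) with Z18trunc, and the ranges overlapped. The ratio of MTREX to ZFC3H1 overlapped too, at 3.30, 4.32 and 4.12 in Clover and 3.34, 3.03 and 3.46 in Z18trunc. PABPN1 over ZFC3H1 was 29.2, 42.5 and 41.2 in Clover and 27.5, 28.3 and 20.9 in Z18trunc. That ratio was lower in all 3 Z18trunc libraries, with Clover replicate 1 closest to them, and was chosen as the highest against the lowest of the PAXT genes. It also sets a short transcript against a long one. Genes near the length of PABPN1 (1811 bases) had a median log2 change of 0.01, and those near ZFC3H1 (7037 bases) 0.23. The part of that trend in the ratio was not tested.

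The shift of all genes and the trend with length moved with the groups, so the 8 genes were also set against them. After quantile normalization, which makes the distribution of values alike in all libraries, the median over all genes was -0.01 and that over the 8 genes 0.13. At an unadjusted p under 0.05, 2 of the 8 were then higher, ZCCHC8 and ZFC3H1, where 12.8% of all genes were higher. Their log2 changes were 0.24 (limma adjusted p = 0.130) and 0.36 (limma adjusted p = 0.169). RBM26 and RBM27 were then at 0.10 and 0.09, RBM7 at 0.17, MTREX at 0.24, PABPN1 at 0.10 and ZC3H3 at -0.15. ZC3H3 was therefore on the low side of all genes once the shift was removed, although its limma adjusted p was 0.344.

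**Figure D2:**
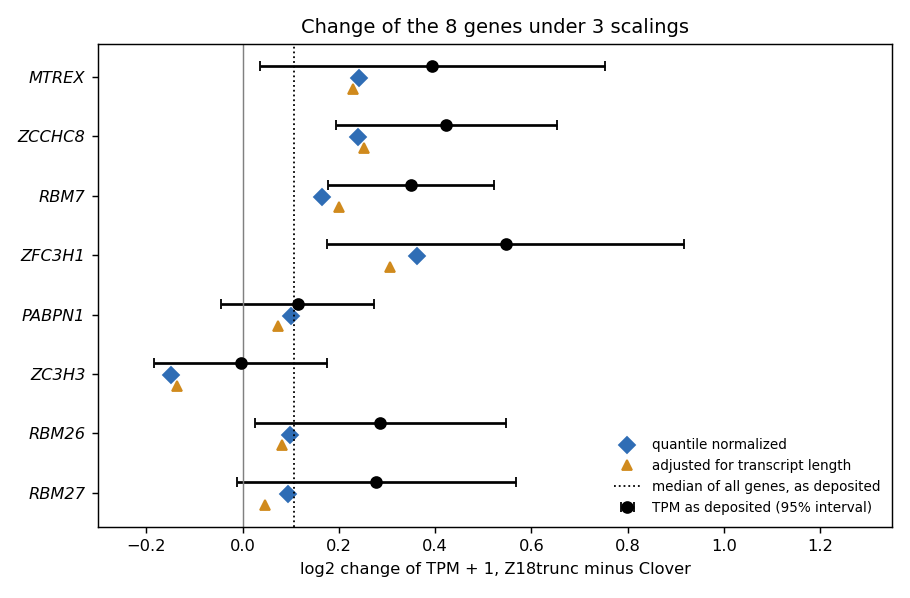
Log2 change of TPM + 1 (horizontal axis, Z18trunc minus Clover) for the 8 genes: black circles are the deposited TPM with 95% limma intervals, blue diamonds quantile normalized values and orange triangles values adjusted for transcript length. The dotted line marks the median of all genes, 0.11, and the diamonds and triangles of the 7 genes other than ZC3H3 lie between 0.05 and 0.36, left of the black circles.

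By transcript length, RBM26 (5258 bases) and RBM27 (6537 bases) lay within the quartiles of genes of their own length. With genes cut into deciles of length, the median log2 change was 0.20 in the decile that holds RBM26 and 0.23 in that of RBM27 and ZFC3H1. MTREX (3961 bases) and ZCCHC8 (4113 bases) were in a decile with a median of 0.17 and an upper quartile of 0.32, which both exceeded. RBM7 (3610 bases) exceeded the upper quartile of its decile, 0.28, and ZC3H3 (3270 bases), in the same decile, lay below the median of 0.11. PABPN1 (1811 bases) was in a decile with a median of 0.01 and an upper quartile of 0.14. Adjusted for length in each library, an alternative chosen after the data were seen, the log2 changes were 0.31 for ZFC3H1, 0.25 for ZCCHC8, 0.23 for MTREX, 0.20 for RBM7, 0.08 for RBM26, 0.07 for PABPN1, 0.05 for RBM27 and -0.14 for ZC3H3. The lowest limma adjusted p among them was 0.133, for ZCCHC8. The part of length in the result was not tested further.

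**Figure D3:**
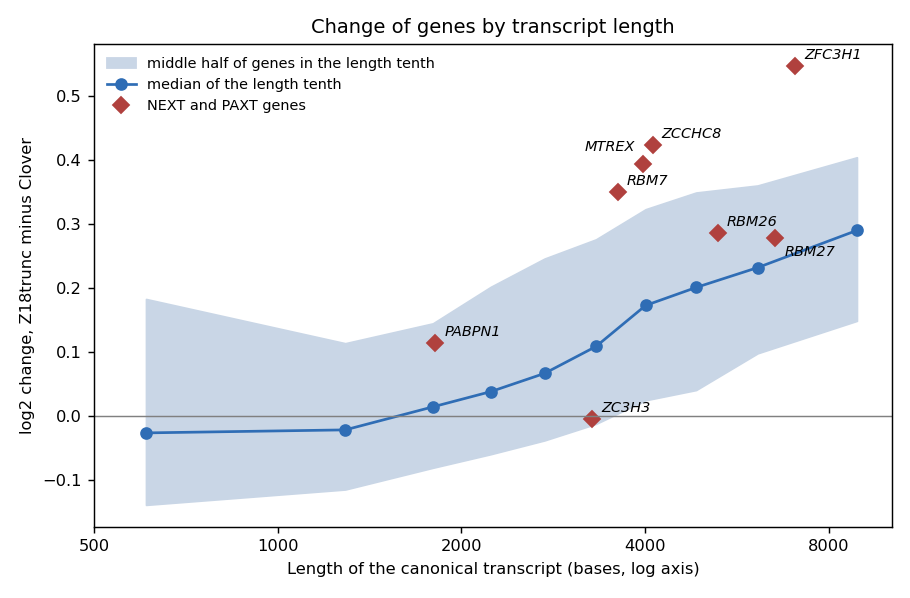
Log2 change of TPM + 1 (vertical axis, Z18trunc minus Clover) against the length of the canonical transcript in bases (log axis): blue points are medians of length deciles of the 12820 genes with a known length, the band spans their lower to upper quartiles and red diamonds are the 8 genes. ZFC3H1, ZCCHC8, MTREX and RBM7 lie above the band, RBM26, RBM27, PABPN1 and ZC3H3 within it.

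Without Clover replicate 2, the library that stood apart, the log2 changes were 0.36 for MTREX, 0.35 for ZCCHC8, 0.39 for RBM7, 0.45 for ZFC3H1, 0.10 for PABPN1, 0.04 for ZC3H3, 0.19 for RBM26 and 0.16 for RBM27. RBM26 and RBM27, at 0.29 and 0.28 with that library, moved most among the 7 genes whose groups were apart. ZFC3H1, at 0.55 with that library, moved almost as much as RBM26. No gene of the 8 passed (limma adjusted p from 0.122 for RBM7 to 0.764 for ZC3H3), and the median of all genes was then 0.07.

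The promoters of ZCCHC8, RBM7 and ZFC3H1 are shown because these 3 genes had the smallest limma p-values of the 8, a choice made after their values were seen. The RefSeq table of promoters (GRCh38.p14) covers 7 of the 8 genes, with 2 windows for PABPN1. Each window runs from 250 bases before to 50 bases after the start of transcription, 5′ to 3′ on the strand of the gene. Capitals mark matches to the letters CCGGAAG (bound by ETS factors), GCATGCGC (NRF1) or ACTACAA (ZNF143), searched on both strands.
ZCCHC8, chr12:122500883-122501182, minus strand: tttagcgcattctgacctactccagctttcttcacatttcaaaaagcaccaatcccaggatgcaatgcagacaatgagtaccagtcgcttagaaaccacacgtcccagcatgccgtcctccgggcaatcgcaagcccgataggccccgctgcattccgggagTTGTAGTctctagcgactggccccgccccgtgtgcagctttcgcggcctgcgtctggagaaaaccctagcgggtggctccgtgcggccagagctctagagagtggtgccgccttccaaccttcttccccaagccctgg
RBM7, chr11:114400416-114400715, plus strand: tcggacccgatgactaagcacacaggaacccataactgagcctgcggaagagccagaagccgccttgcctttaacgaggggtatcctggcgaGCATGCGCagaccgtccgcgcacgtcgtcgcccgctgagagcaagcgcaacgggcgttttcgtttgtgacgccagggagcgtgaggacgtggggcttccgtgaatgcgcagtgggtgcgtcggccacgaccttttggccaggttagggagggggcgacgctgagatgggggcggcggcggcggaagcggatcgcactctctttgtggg
ZFC3H1, chr12:71663799-71664098, minus strand: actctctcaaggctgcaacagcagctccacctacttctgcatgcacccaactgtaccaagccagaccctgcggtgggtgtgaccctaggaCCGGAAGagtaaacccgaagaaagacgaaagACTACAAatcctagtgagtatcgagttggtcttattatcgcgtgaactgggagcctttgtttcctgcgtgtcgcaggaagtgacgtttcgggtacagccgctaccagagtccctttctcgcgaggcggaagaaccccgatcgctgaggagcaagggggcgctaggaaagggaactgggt

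In the RBM7 window, GCATGCGC starts at position -158 (-1 is the last base before the start of transcription), and 3.05% of all 35116 promoters hold it. In the ZFC3H1 window, CCGGAAG starts at -160, and 10.3% of all promoters hold it. ACTACAA, which was added to the search after the sequences were seen, is in 2.77% of all promoters. It starts at -129 in ZFC3H1, and in ZCCHC8 its reverse complement starts at -88. Of the 7 genes, ACTACAA is also in a PABPN1 window, while CCGGAAG and GCATGCGC are in no other.

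Further motifs were shared between the 7 genes in other ways. AAGATGG (YY1) is in the windows of RBM26 and RBM27 and in 5.84% of all promoters. GGGCGG (GC box) is in those of MTREX, ZCCHC8, RBM7, PABPN1 and RBM27 and in 45.0% of all promoters. CCAAT is in those of ZCCHC8, PABPN1 and RBM27 and in 34.6% of all promoters. TATAAA is in that of RBM26 alone, with 11.5% of all promoters, and CACGTG (E-box) is in none of the 7, with 7.26% of all promoters. No window of the 7 held the same set of motifs as another. The GC content of the windows was 54.7% to 68.3%, around the median of 58.7% over all promoters.

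To ask whether unspliced or intronic RNA of the adaptor genes differed, a readout other than TPM was used. Fragments at transposable element (TE) copies, repeats that are common in introns, were summed for each gene on its own strand, leaving out every copy that touches an annotated exon. Of 9274 genes with at least 30 such fragments, edgeR called 18 at an adjusted p under 0.05, which is 0.194%, and 0 of the 8 adaptor genes. The 8 genes include 6 that reached 30 fragments. Of those 6 the unadjusted edgeR p was under 0.05 for ZCCHC8 alone, which was higher, where 14.4% of all genes tested were higher, so 1 of 6 is near the background. The median log2 change over all genes was 0.30, with library sizes from aligned fragments.

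ZCCHC8 held 23, 30 and 29 intronic TE fragments in Clover replicates 1 to 3 and 43, 34 and 59 in Z18trunc replicates 1 to 3. The groups did not overlap after scaling to aligned fragments, at 1.36 ± 0.292 and 2.197 ± 0.532 CPM (SD, n = 3 each), where CPM is the count scaled to the aligned fragments. The log2 change was 0.70 (SE 0.30, edgeR adjusted p = 0.244). TMM scaling, which centres the bulk of genes, gave 0.39 (edgeR adjusted p = 0.849). The fragments were spread over 35 copies, of which the fullest held 8.72%.

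MTREX held 36, 13 and 12 fragments in Clover and 36, 27 and 21 in Z18trunc. Clover replicate 1 was as high as the highest Z18trunc library, so the groups overlapped (log2 change 0.47, SE 0.35, edgeR adjusted p = 0.538). The value rested on single libraries, at 1.07 without Clover replicate 1 (edgeR adjusted p = 0.184), 0.28 without Clover replicate 2 and 0.23 without Clover replicate 3. ZFC3H1 held 16, 16 and 9 fragments in Clover and 15, 9 and 26 in Z18trunc. Its groups overlapped, and the log2 change of 0.27 (SE 0.43, edgeR adjusted p = 0.800) turned to -0.05 under TMM scaling.

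RBM26 held 29, 17 and 22 fragments in Clover and 21, 21 and 43 in Z18trunc. Replicate 3 alone was high among the Z18trunc libraries. Its log2 change of 0.32 (SE 0.34, edgeR adjusted p = 0.683) turned to -0.00498 under TMM scaling. RBM27 held the most of the 8 genes, with 56, 38 and 48 fragments in Clover and 43, 31 and 54 in Z18trunc. Its groups overlapped, and the log2 difference was -0.16 (SE 0.27, edgeR adjusted p = 0.813). It was -0.0460 without Z18trunc replicate 2, -0.35 without Z18trunc replicate 3 and -0.47 under TMM scaling (edgeR adjusted p = 0.967, 0.768 and 0.739). A single AluSp copy in an intron (hg38, chromosome 5, 146271119 to 146271415) held 43.0% of its fragments, and without it, an alternative chosen after the data were seen, the log2 change was -0.22 (edgeR adjusted p = 0.785). RBM27 TPM was higher in all Z18trunc libraries while its intronic TE fragments overlapped between the groups, as also held for MTREX, ZFC3H1 and RBM26. With an SE of 0.27, the intronic value of RBM27 cannot be told apart from its log2 change of 0.28 in TPM.

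ZC3H3 held 14, 11 and 4 fragments in Clover and 3, 9 and 11 in Z18trunc, which overlapped (log2 change -0.31, SE 0.55, edgeR adjusted p = 0.819). PABPN1, with 25 fragments in all, and RBM7, with 10, were not tested. RBM7 held 1, 1 and 0 in Clover and 4, 2 and 2 in Z18trunc, which is near the limit of 0.134 to 0.165 CPM that a count of 0 allows. Such limits cover counting error only. At 10 to 270 fragments a gene, a difference of the size seen in TPM was not detectable in introns.

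**Figure D4:**
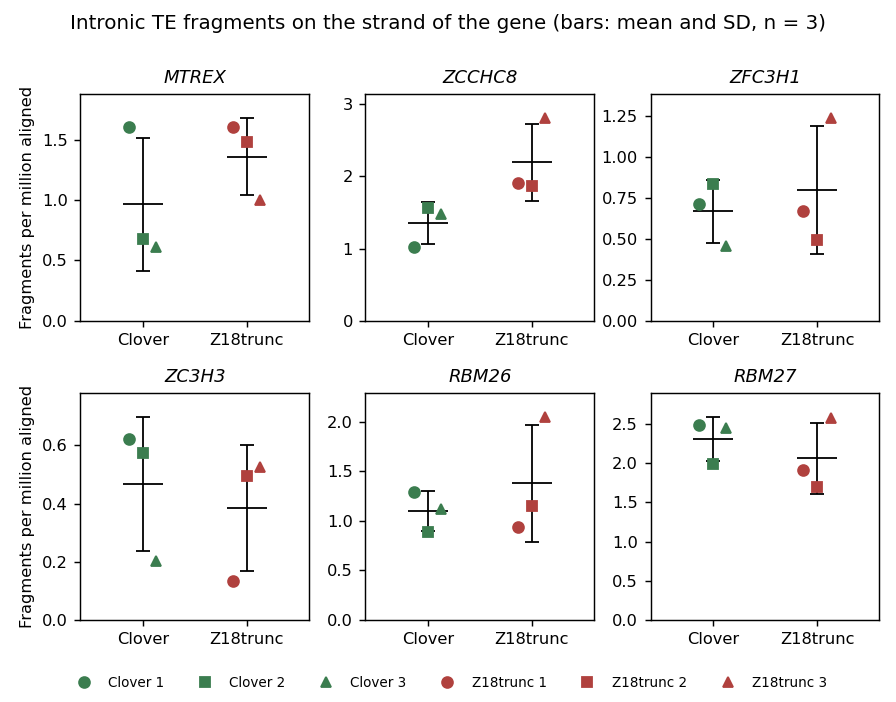
Intronic TE fragments scaled to aligned fragments (CPM) on the strand of the gene (vertical axes, from 0) for the 6 genes with at least 30 fragments, in the 3 Clover and 3 Z18trunc libraries, with bars for the mean and SD. The groups are apart for ZCCHC8, whose 3 Z18trunc libraries exceed its 3 Clover libraries, and overlap for the other 5.

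To place the adaptors among the genes they work with, 52 further genes in 8 lists were read from the same fit. Of these, limma called ZC3H18 alone. The counts for each list are at an unadjusted limma p under 0.05, where 25.6% of all genes were higher and 2.9% lower, and the lists hold too few genes for a share to be read as particular to them. By that count the RNA exosome itself had 2 of 13 genes higher and 1 lower, with a median log2 change of 0.15. Among its genes EXOSC5, the most abundant core subunit, was at 131 ± 11.02 TPM in the control and 123 ± 5.397 TPM with Z18trunc (SD, n = 3 each). DIS3, a catalytic subunit, went from 4.75 ± 0.475 to 6.56 ± 1.34 TPM (log2 change 0.38, limma adjusted p = 0.132), and the core subunit EXOSC4 went from 100.3 ± 5.09 to 80.6 ± 5.70 TPM (log2 change -0.31, limma adjusted p = 0.0851).

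The cap and ARS2 linkers had 5 of 6 genes higher and 0 lower, with a median of 0.35, against 25.6% of all genes higher. ZC3H18, which the transgene supplies, is 1 of those 5, and the others are NCBP1, NCBP2, NCBP3 and PHAX. PHAX, the export adaptor that competes with these complexes, was at 14.1, 14.1 and 14.1 TPM in Clover and 19.0, 18.4 and 22.8 TPM in Z18trunc (log2 change 0.48, limma adjusted p = 0.0773). Other partners of MTREX had 3 of 7 genes higher and 1 lower, with a median of 0.26. In that list the AAA ATPase NVL was 0.32 higher, ZCCHC7 of the TRAMP complex 0.30 higher and the abundant nucleolar NOP53 was at -0.08 on the log2 scale (limma adjusted p = 0.118, 0.138 and 0.506).

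Genes of poly(A) addition and binding had 4 of 5 higher and 0 lower, with a median of 0.30, against 25.6% of all genes higher. PAPOLA, the canonical poly(A) polymerase, went from 58.4 ± 7.84 to 80.9 ± 7.31 TPM (SD, n = 3 each), with a log2 change of 0.47 (limma adjusted p = 0.0840). On the log2 scale PABPC1, the cytoplasmic counterpart of PABPN1, was 0.23 higher and the poly(A)-binding ZC3H14 0.33 higher (limma adjusted p = 0.120 and 0.0988). CDK13, the kinase known to act on PAXT, was 0.40 higher, its relative CDK12 0.57 higher and their cyclin CCNK 0.11 higher (limma adjusted p = 0.0835, 0.0773 and 0.4999). The median of that list of 3 was 0.40, with 2 higher and 0 lower.

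In the restrictor complex, which ends transcription of short noncoding RNA, 0 of 2 genes were higher or lower, with log2 changes of 0.21 for WDR82 and 0.06 for ZC3H4. The cytoplasmic SKI counterpart had 1 of 4 genes higher and 0 lower, with a median of 0.16. In it HBS1L was 0.43 higher, TTC37 (SKIC3) 0.38 higher and WDR61 (SKIC8) at -0.06 on the log2 scale (limma adjusted p = 0.0835, 0.212 and 0.630).

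Host RNAs of small nucleolar RNA, a class that PAXT is known to degrade, had 1 of 12 higher and 1 lower, with a median of 0.03. SNHG10 was at 18.2, 22.4 and 21.6 TPM in Clover and 32.1, 38.6 and 33.4 TPM in Z18trunc (log2 change 0.72, limma adjusted p = 0.0773). SNHG5, the most abundant of the list, was at 903, 913 and 842 TPM in Clover and 795, 729 and 765 TPM in Z18trunc (log2 change -0.21, limma adjusted p = 0.121). SNHG12 was 0.22 higher on the log2 scale (limma adjusted p = 0.387). After quantile normalization the medians were 0.08 for the exosome, 0.26 for the cap linkers, 0.10 for the other MTREX partners, 0.14 for the poly(A) genes, 0.26 for CDK13 and partners, 0.02 for restrictor, 0.03 for SKI and -0.00819 for the host RNAs, beside 0.13 for the 8 adaptor genes and -0.01 for all genes.

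The 8 genes were last compared by their pattern over the 6 libraries, as Pearson correlations of log2(TPM + 1) after centring each library on its median. These are descriptions over 6 points that share group, depth and length trends. RBM26 and RBM27 had r = 0.93, ZFC3H1 and RBM26 0.89, and ZFC3H1 and ZCCHC8 0.88. PABPN1 and ZC3H3 had r = 0.91 with each other and between -0.97 and -0.90 with RBM26 and RBM27. The negative r holds for centred values only and does not show opposite changes in TPM. The library median, which centring subtracts, ran from 3.829 in Clover replicate 2 to 4.125 in Z18trunc replicate 3. A gene with a flat level therefore falls as the median rises. In TPM, PABPN1, RBM26 and RBM27 were all higher in every Z18trunc library than in any Clover library. RBM7 was the least tied to the rest, with r from -0.02 to 0.54. The genes most alike among those with a mean of at least 5 TPM were SREK1 and SNX5 for MTREX, FAM122B and STK38L for ZCCHC8, C1GALT1C1 and YWHAZ for RBM7, and SYNJ2BP and MHENCR for ZFC3H1. For PABPN1 they were FAM98C and PLA2G2C, for ZC3H3 CD99 and SLC25A1, for RBM26 FAR1 and BTAF1, and for RBM27 RAI14 and TASOR. The r of these pairs was 0.983 to 0.997, and from 18 genes for RBM7 to 246 for ZC3H3 exceeded 0.95.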

How the data were processed

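RNA of 3 Clover and 3 Z18trunc SW480 lines was polyA-selected, made into stranded libraries and sequenced paired-end. The authors trimmed reads (cutadapt 4.6 in the submitters' processing notes), mapped them to hg38 and ran SQuIRE. Their deposited gene tables, in the layout of StringTie, hold TPM and FPKM without counts. The deposited TE tables hold uniquely mapped counts and estimated counts, in which fragments that map to several places were shared among copies, on each strand.

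TPM was summed by symbol. For symbols with a mean of at least 1 TPM, limma 3.58.1 in R 4.3.3 was fitted to log2(TPM + 1), two-sided, adjusted by Benjamini-Hochberg over all genes at 0.05; changes on this scale understate those of low genes. The depth behind a TPM is unknown. Estimated counts were rounded, summed over TE copies wholly inside a gene and outside exons of GENCODE 44 (bedtools 2.31.1), and passed to edgeR 4.0.16 (quasi-likelihood) for genes with at least 30 counts, with aligned fragments as library sizes. A count of 0 allows up to 3 counts. Transcript lengths are those of canonical GENCODE 44 transcripts and were found for 96.4% of genes. Both fits were run on simulated data that held no shift of all genes and no length trend, so that check does not cover these features.

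The 8 genes and the pathway lists were chosen with earlier results of these data known. Other genes were named by rule: those overlapping a member, from each list the most abundant and those with the largest absolute log2 changes, and the genes most correlated with each member. Alternatives were another pseudocount, other filters, quantile normalization, centring on the library median, FPKM, an intensity trend, TMM, DESeq2 1.42.0, uniquely mapped counts, the opposite strand, a replicate block and leaving out each library. Adjustment for length, PABPN1 summed with its read-through gene and leaving out the fullest RBM27 copy were added after the data were seen.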

Additional observations from a re-analysis of the deposited data

How the results depend on the processing

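The log2 changes of MTREX, ZCCHC8, RBM7, ZFC3H1, RBM26 and RBM27 stayed above 0 under every alternative run, with ranges of 0.23 to 0.50, 0.24 to 0.49, 0.17 to 0.39, 0.31 to 0.69, 0.08 to 0.35 and 0.05 to 0.34. The filters on level, the intensity trend, the replicate block and the summed PABPN1 leave these log2 changes unchanged and so cannot test their sign. The median of all genes was itself above 0 with the deposited TPM, at 0.11. Of the 8 genes 2 were called with a mean of at least 5 TPM, ZCCHC8 at 0.42 and RBM7 at 0.35, and 0 in every other setting. PABPN1 turned to -0.0502 when libraries were centred on their median, which also puts the median of all genes at -0.06. ZC3H3 ranged from -0.0408 to 0.0401 when 1 library was left out. Over all genes limma called 1 with a pseudocount of 0.1, without a filter, after quantile normalization, adjusted for length or with the replicate block, 474 with at least 5 TPM, 60 with an intensity trend, and 1 to 4 when 1 library was left out, where 4 came from dropping Clover replicate 2 and 1 from dropping Z18trunc replicate 1.

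On intronic TE fragments edgeR called 0 of the 8 genes in any setting, and the filter of DESeq2 gave the 6 tested genes no adjusted p (lowest unadjusted p 0.0991, for RBM27). Over all genes DESeq2 with its own size factors called 38, 37 of them lower, the opposite strand 1, the replicate block 0 (unadjusted, 919 were higher and 26 lower), and leaving out 1 library 0 to 64. Dropping replicate 1 gave the higher counts, 44 for Clover and 64 for Z18trunc. Dropping replicate 2 gave 0 for Clover and 2 for Z18trunc, and dropping replicate 3 gave 2 and 0. Unadjusted edgeR p-values under 0.05 split into 1332 higher and 33 lower, and 317 and 318 under TMM, which centres on the bulk of genes by construction. ZFC3H1 turned to -0.0461 under TMM and -0.0499 under DESeq2 and ranged from -0.19 to 0.50 when 1 library was left out. RBM26 turned to -0.00498 under TMM and -0.00519 under DESeq2 and ranged from -0.0904 to 0.54. ZC3H3 was at 0.15 on the opposite strand and ranged from -0.66 to 0.11. With 1 library left out, MTREX ranged from 0.23 to 1.07, ZCCHC8 from 0.49 to 0.82 and RBM27 from -0.35 to -0.0460. The cause of these changes was not tested.

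Replicate numbers were not treated as pairs. Same-numbered libraries had correlations of deviations from -0.04 to 0.02, which cannot show whether their lines were made together. In the paired fit with the replicate block, 6 of the 8 genes had an unadjusted limma p under 0.05 against 5 without it, where 3193 of 13300 genes were higher and 302 lower with the block and 3404 and 386 without it. The TPM tables carry no depth, and 10 to 270 intronic fragments a gene limit what introns can show.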

Other observations

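ZC3H3 was the one adaptor gene with an appreciable signal on the strand opposite to it, at 76 fragments over its intronic TE copies against 52 on its own strand. The other 7 genes had at most 5 there. Most of it lay at neighbouring L1ME1 and AluSq2 copies (hg38, chromosome 8, 143462796 to 143462943 and 143462984 to 143463284), with 9, 2 and 3 fragments at L1ME1 in Clover and 11, 5 and 4 in Z18trunc. The AluSq2 copy held 6, 3 and 6 fragments in Clover and 4, 4 and 5 in Z18trunc, so the groups overlapped at both.

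RBM7 held few intronic TE fragments but 145 at TE copies that touch its exons, mainly an AluSx1 and a Tigger4a copy near the 3′ end of the gene (chromosome 11, 114409367 to 114409668 and 114409917 to 114410122). Summed over its exonic copies, the counts were 22, 21 and 16 in Clover and 22, 32 and 32 in Z18trunc. The groups met at 22 fragments in replicate 1 of each before any scaling to library depth. After scaling they overlapped, since Clover replicate 2 (21 of 19130373 aligned fragments) was above Z18trunc replicate 1 (22 of 22454103). No test was made.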
